A study of Mus musculus with 52 samples.

Results

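Blood of tumor-bearing mice treated with ATOR-4066 was compared with blood of mice treated with CD40 mAb. The comparison uses 9 of the 52 RNA sequencing libraries of the study, namely the 4 blood libraries labelled ATOR-4066 (animals 1, 3, 4 and 5) and the 5 labelled CD40 mAb (animals 1 to 5), taken by their titles and treatment labels. The 5 vehicle blood libraries entered the same fit and give the level without antibody. All mice were hCD40tg, that is, they carried a human CD40 transgene, and all had been inoculated with MC38-CEACAM5, a mouse colon carcinoma line that expresses the human tumor antigen CEACAM5. CD40 mAb is an antibody that binds CD40, and ATOR-4066 is an antibody with 2 specificities, 1 for CD40 and 1 for CEACAM5. The sources used here do not give the transgene's promoter, the doses, the day of bleeding or the animals' age, and animals are taken to be separate because the titles number them.

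CD40 is a receptor of the tumor necrosis factor receptor family on B cells, dendritic cells, monocytes and macrophages. When it is crosslinked, TRAF adaptor proteins pass the signal to NF-kappaB. Antibodies that activate CD40 throughout the body can lead to release of cytokines, and interferons among them induce a large group of antiviral and GTPase genes in most blood cells. A bispecific antibody that also binds a tumor antigen is designed to act mainly where that antigen is present. Whole blood RNA comes mostly from reticulocytes, the young red cells that still hold haemoglobin mRNA, with smaller parts from leukocytes and platelets.

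The libraries held 33.5 to 44.1 M counts (M, 1e+06 counts), of which 14 haemoglobin genes took most. The haemoglobin share was 78.1, 88.2, 86.0 and 81.4 percent in ATOR-4066 replicates 1, 3, 4 and 5, and 81.2, 78.6, 79.3, 81.0 and 77.5 percent in CD40 mAb replicates 1 to 5. The mean was 83.4 ± 4.56 percent (SD, n = 4) against 79.5 ± 1.59 percent (SD, n = 5), a difference of 3.89 percentage points that did not pass an exact permutation test (two-sided p = 0.135, where the smallest p possible is 0.0159). Without ATOR-4066 replicate 1 the difference was 5.67 points (exact permutation p = 0.0179), and without ATOR-4066 replicate 3 it was 2.31 points (exact permutation p = 0.286). Vehicle libraries had 69.8 to 76.0 percent. Between 4.14 and 11.6 M counts per library were left for all other genes. The labelled tissue was checked against its markers. Haemoglobin genes led every library, and only 1 of 8 tumor epithelium markers was high enough to be tested. The leukocyte gene Ptprc lay between 110 and 159 CPM (counts per 1e+06 of the scaled library) in all 14. That range holds after the scaling described below, which aligns the bulk of the genes. It does not give the leukocyte share of each library.

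The CD40 mAb library of animal 1 stood apart from the other 4 of its group. On the first principal component of the 1000 most variable genes, which held 66.1 percent of the variance, it lay at -8.92, while CD40 mAb 2 to 5 lay at 53.3, 30.7, 71.5 and 51.7. The 4 ATOR-4066 libraries lay between -20.7 and -2.41 and the vehicle libraries between -36.1 and -22.9. Mitochondrially encoded genes took 4.65 percent of its counts outside haemoglobin, against 2.10 to 2.80 percent in CD40 mAb 2 to 5 and 3.57 to 5.6 percent in ATOR-4066. The label was kept as given, and gene list counts that this library moved are given with and without it.

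The scaling factors differed between groups as well. TMM factors, which align libraries on the bulk of the genes, were 0.314 to 0.592 in CD40 mAb 2 to 5, 0.981 in CD40 mAb 1, 0.623 to 1.19 in ATOR-4066 and 1.65 to 2.35 in vehicle. A low factor means that the bulk of the genes took a smaller part of the library's counts. With haemoglobin genes left out, the factors were 0.347 to 0.602 in CD40 mAb 2 to 5 and 1.09 in CD40 mAb 1. They were then 0.97 to 1.41 in ATOR-4066 and 1.4 to 1.69 in vehicle. Which other genes lie behind the low factors was not tested. Levels below are CPM after TMM scaling with all genes. A log2 change is ATOR-4066 minus CD40 mAb, with its standard error (SE).

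**Figure D1:**
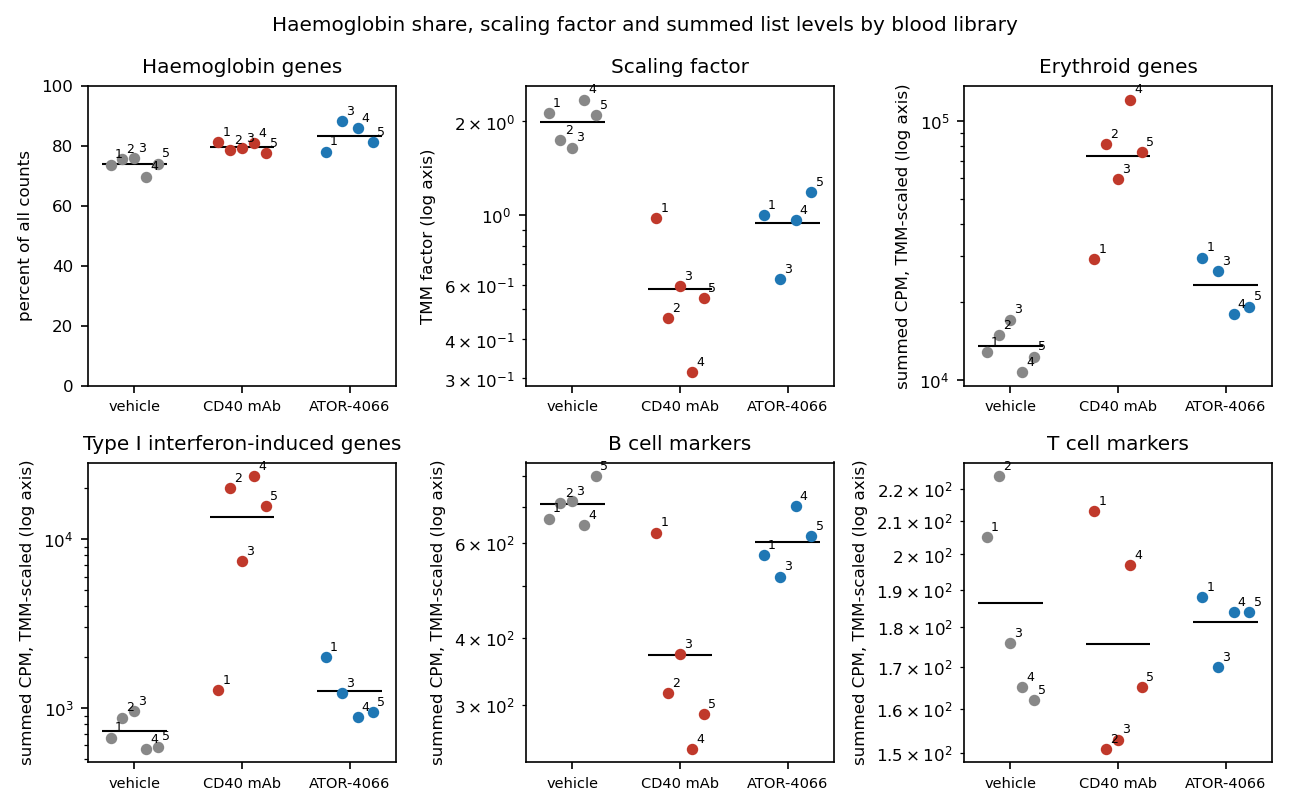
Each point is 1 blood library, numbered by animal, and each line is a group mean. The panels show the percent of counts from haemoglobin genes, the TMM factor (log axis) and the summed level in CPM (log axes) of 4 gene lists. CD40 mAb replicate 1 lies near the ATOR-4066 libraries in the erythroid, type I interferon and B cell panels, and the T cell panel shows all groups between 151 and 224 CPM.

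Of 12184 genes tested with edgeR's quasi-likelihood test, 281 (2.31%) were higher and 1312 (10.8%) lower in ATOR-4066 than in CD40 mAb blood at a Benjamini-Hochberg adjusted p under 0.05. With the haemoglobin genes taken out before scaling, 323 (2.65%) were higher and 1282 (10.5%) lower, and 280 of the higher and 1277 of the lower genes were called in both. The split between higher and lower depended on the scaling. When libraries were scaled by their total alone, 2324 genes were higher and 383 lower, so that 85.9 percent of calls were higher against 17.6 percent with TMM, and the median log2 change over all genes moved from 0.01 to 0.72. With totals that leave out haemoglobin, 8694 of 12183 genes tested were higher and 367 lower, and the median was 1.02. Counts of list members given below are to be read against the share of all genes called under the same scaling. The 383 lower genes under the total alone were all among the 1312, and 280 of the 281 higher genes were higher there too. Bulk blood gives levels relative to all RNA in the tube, so fewer cells of a type and less RNA per cell cannot be told apart here. Without CD40 mAb replicate 1, 1015 genes were higher and 2011 lower. Without CD40 mAb 2, 4 or 5 the higher count was 142, 142 and 171, and without ATOR-4066 4 or 5 it was 74 and 137, with 840 and 866 lower.

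All 4 ATOR-4066 libraries lay above all 5 CD40 mAb libraries in 306 genes (2.51%) and below them in 430 (3.53%). Against vehicle, which shares libraries with the comparison above, CD40 mAb had 2710 genes higher (22.2%) and 1509 lower (12.4%), and ATOR-4066 had 50 higher (0.41%) and 3 lower (0.0246%).

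**Figure D2:**
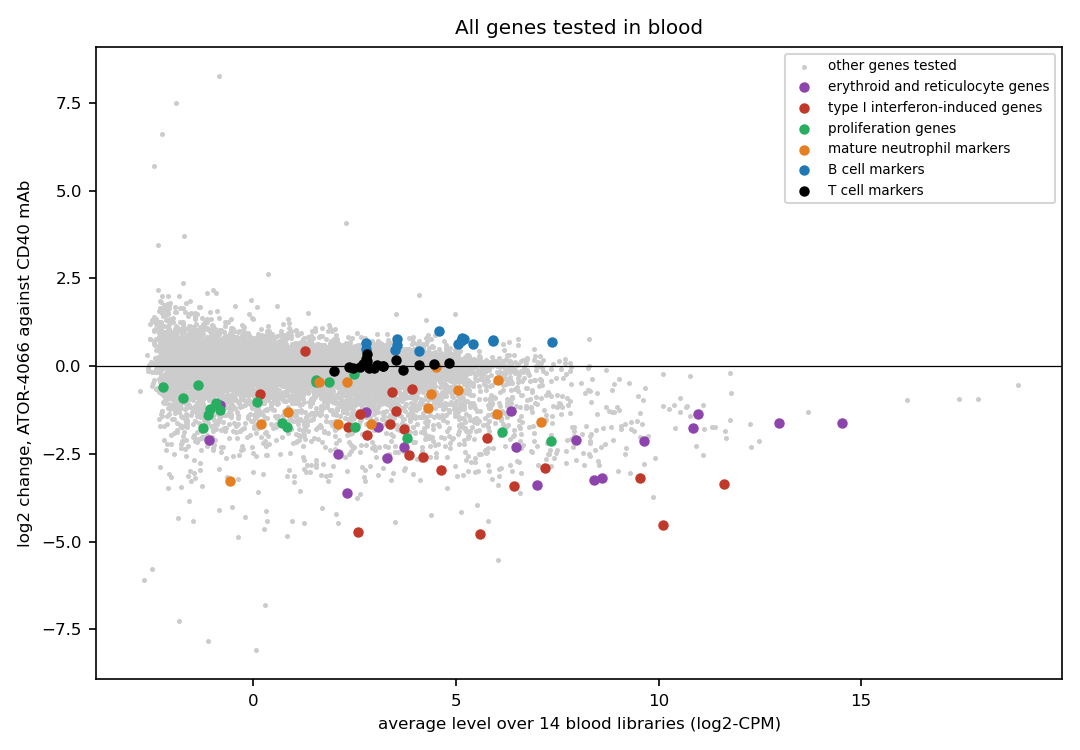
Each point is 1 of the 12184 genes tested. The horizontal axis is its average level over the 14 blood libraries in log2-CPM, and the vertical axis its log2 change, ATOR-4066 against CD40 mAb. Erythroid genes and most type I interferon-induced genes lie below 0 at all levels, B cell markers lie above 0 and T cell markers around 0.

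Genes of red cell precursors were lower in ATOR-4066 blood. Of 19 tested erythroid and reticulocyte genes, 18 were lower and none higher, with a median log2 change of -2.11. Summed over the list, the level was 29700, 26400, 17900 and 19200 CPM in ATOR-4066 1, 3, 4 and 5, and 29200, 81600, 59500, 121000 and 75900 CPM in CD40 mAb 1 to 5. Vehicle libraries had 10700 to 17100 CPM. CD40 mAb 2 to 5 were above every other blood library, and CD40 mAb 1 was inside the ATOR-4066 range. Scaled by the total alone, 13 of the 19 were lower with a median of -1.19, and 18 were lower without CD40 mAb 1. Without ATOR-4066 4 or 5 the count was 12 in each case.

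Genes for red cell membrane proteins were among those lower. Epb42 (ENSMUSG00000023216, chromosome 2, 121017891 to 121037072, GRCm38), which encodes a protein of the red cell membrane skeleton, was at 58.6, 25, 19.7 and 18.1 CPM in ATOR-4066 1, 3, 4 and 5. In CD40 mAb 1 to 5 it was at 48.9, 405, 181, 563 and 398 CPM, so 4 CD40 mAb libraries were above every ATOR-4066 library and the groups overlapped only through CD40 mAb 1. Its log2 change was -3.40 ± 0.591 (SE; edgeR adjusted p = 0.00526), a 10.5-fold higher level in CD40 mAb. Rhag, a membrane channel of the Rhesus complex, changed by -3.62 ± 0.687 (edgeR adjusted p = 0.00575).

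Enzymes and iron uptake genes of the list moved the same way. Car2, carbonic anhydrase 2, was at 194, 94.6, 74.0 and 64.1 CPM in ATOR-4066 1, 3, 4 and 5 and at 137, 1350, 608, 1680 and 1050 CPM in CD40 mAb 1 to 5. The log2 change of Car2 was -3.17 ± 0.58 (edgeR adjusted p = 0.00526). Tfrc, the transferrin receptor that dividing erythroid precursors use to take up iron, was at 5.50, 6.97, 4.11 and 6.61 CPM in ATOR-4066 and at 9.12, 29.9, 16.6, 50.5 and 36.7 CPM in CD40 mAb. For Tfrc the groups did not overlap (log2 change -2.30 ± 0.389, edgeR adjusted p = 0.00526). Alas2, which makes the first enzyme of heme synthesis in red cells and was chosen after its values were seen, also did not overlap. It had 14900 ± 3460 CPM in ATOR-4066 (SD, n = 4) and 45800 ± 22000 CPM in CD40 mAb (SD, n = 5; edgeR adjusted p = 0.0156, or 0.0659 and 0.0618 without ATOR-4066 4 or 5). Redrum, a long noncoding RNA of erythroid cells, changed by -3.76 ± 0.745 (edgeR adjusted p = 0.0066).

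The haemoglobin genes themselves were less clear. Of 7 tested members of the haemoglobin list, 1 was lower and none higher, and the median change was -0.94. Hbq1b, a minor alpha-like globin, was at 24.1 ± 5.56 CPM in ATOR-4066 (SD, n = 4) and 122 ± 73.0 CPM in CD40 mAb (SD, n = 5; log2 change -2.35 ± 0.435, edgeR adjusted p = 0.00526). Hbb-bt, an adult beta globin, changed by -0.98 ± 0.415 (edgeR adjusted p = 0.142) and Hba-a1, an adult alpha globin with a near-identical copy, by -0.94 ± 0.413 (edgeR adjusted p = 0.155). When CD40 mAb 1 was left out both had an adjusted p of 0.0173 and 5 of the 7 were lower. With totals alone their changes were -0.18 and -0.09 (edgeR adjusted p = 0.268 and 0.579), while 13 erythroid genes were lower under that scaling.

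Type I interferon-induced genes had the lowest median change of the immune lists. Of 21 tested, 12 were lower in ATOR-4066 and none higher, with a median log2 change of -2.04, and the summed level was 2000, 1220, 884 and 944 CPM in ATOR-4066 1, 3, 4 and 5. In CD40 mAb 1 to 5 it was 1270, 20000, 7410, 23600 and 15700 CPM, and in vehicle 573 to 954 CPM. CD40 mAb 2 to 5 were thus far above all other blood libraries and CD40 mAb 1 was within the ATOR-4066 range. Without CD40 mAb 1, 19 of the 21 were lower. Without ATOR-4066 4 or 5, 8 were, and with totals alone 10 were lower and 1 higher.

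Isg15 (ENSMUSG00000035692, chromosome 4, 156199424 to 156200818), a ubiquitin-like protein that is attached to other proteins, was at 192, 128, 96.4 and 84.2 CPM in ATOR-4066 1, 3, 4 and 5. It was at 122, 4250, 900, 6460 and 2810 CPM in CD40 mAb 1 to 5 and at 40.2 to 87.1 CPM in vehicle. The log2 change was -4.54 ± 0.841 (edgeR adjusted p = 0.00526). Rsad2, which encodes the antiviral enzyme viperin, was at 1340, 692, 467 and 520 CPM in ATOR-4066 and at 899, 11600, 5250, 12400 and 8730 CPM in CD40 mAb (log2 change -3.37 ± 0.609, edgeR adjusted p = 0.00526). Both genes overlapped between groups only through CD40 mAb 1.

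Other members had the same pattern. Usp18, the protease that removes Isg15 from proteins, was at 4.26 to 5.23 CPM in ATOR-4066 and at 2.52, 203, 34.3, 310 and 99.3 CPM in CD40 mAb (log2 change -4.78 ± 0.988, edgeR adjusted p = 0.00738). Ifi44 changed by -4.72 ± 0.959 (edgeR adjusted p = 0.00738) and Ifit1, which binds viral RNA, by -3.42 ± 0.686 (edgeR adjusted p = 0.00604). Irf7, the transcription factor that amplifies type I interferon production, was at 199 ± 36.3 CPM in ATOR-4066 (SD, n = 4) and 1830 ± 1280 CPM in CD40 mAb (SD, n = 5; log2 change -3.20 ± 0.65, edgeR adjusted p = 0.0057). Against vehicle, which shares these libraries, Irf7 in CD40 mAb differed by 4.19 on the log2 scale (edgeR adjusted p = 0.000149) and in ATOR-4066 by 0.99 (edgeR adjusted p = 0.44).

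Of 18 interferon-gamma-induced genes tested, 12 were lower and 1, Ciita, was higher, with a median of -1.25, or 14 lower without CD40 mAb 1, 8 lower without ATOR-4066 4 and 9 lower without ATOR-4066 3. With totals alone 7 were lower and 1 higher, and with totals that leave out haemoglobin the median was 0.01, with 6 members lower and 2 higher, so the sign of the list's median depends on the scaling. Gbp2, a guanylate-binding GTPase that attacks the vacuoles of intracellular pathogens, was at 7.33, 7.93, 5 and 7.47 CPM in ATOR-4066 1, 3, 4 and 5 and at 4.68, 278, 29.8, 318 and 102 CPM in CD40 mAb 1 to 5. For Gbp2 the log2 change was -4.40 ± 0.925 (edgeR adjusted p = 0.00787). Gbp7 of the same family changed by -2.95 ± 0.584 (edgeR adjusted p = 0.00609).

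Immunity-related GTPases followed the Gbp genes. Tgtp2, which has a near-identical copy Tgtp1, was at 17.6 to 24.2 CPM in ATOR-4066 and at 13.4, 361, 75.2, 496 and 259 CPM in CD40 mAb (log2 change -3.61 ± 0.737, edgeR adjusted p = 0.00656). Igtp changed by -2.45 ± 0.531 (edgeR adjusted p = 0.00781), and its annotated span shares 7974 bases with Irgm2 on the same strand, so reads of these genes may be mixed. The olfactory receptor Or2v1 was called lower as well (log2 change -3.57 ± 0.878, edgeR adjusted p = 0.0172). Its span holds Ifi47, on the same strand, and Tgtp1 and Tgtp2, on the other, so its counts may come from interferon-induced neighbours. Without ATOR-4066 4 or 5 its adjusted p was 0.0673 and 0.0526.

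Apolipoprotein L genes, a family of interferon-inducible lipid-binding proteins on chromosome 15, were among the 15 largest falls. Apol11b was at 335, 215, 93.8 and 73.4 CPM in ATOR-4066 1, 3, 4 and 5, at 345, 3200, 1190, 3770 and 3430 CPM in CD40 mAb 1 to 5 and at 52.9 to 85.3 CPM in vehicle. The groups did not overlap, though ATOR-4066 1 and CD40 mAb 1 nearly met (log2 change -3.73 ± 0.651, edgeR adjusted p = 0.00526). Apol11a changed by -4.16 ± 0.801 (edgeR adjusted p = 0.00589) and Apol10a by -3.63 ± 0.75 (edgeR adjusted p = 0.00764). The 250 bases before the start of Apol11a and Apol11b are identical in RefSeq (250 of 250 bases). Their transcripts were not compared, so whether reads of these genes can be told apart was not tested.

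The sequences before these genes are printed because the genes moved together and interferon-stimulated response elements are the sites through which interferons are known to act. The motif searched was GAAANNGAAA on both strands, in RefSeq windows from 250 bases before to 50 bases after each start (GRCm38.p6). It was present in 3.99 percent of 27025 genes. Among the type I interferon-induced genes with a window it was present in 9 of 16, and in 5 of the 10 that were lower. Among interferon-gamma-induced genes it was present in 12 of 15, and in 8 of the 9 that were lower. None of the 11 erythroid genes with a window had it. These shares describe the lists, whose genes were chosen as known interferon targets. Below are the 250 bases before the start, 5′ to 3′ on the gene's strand, with every match in capitals (overlapping matches merge in Isg15, which has 3); Isg15 lies at chr4:156200819-156201068 on the minus strand, Rsad2 at chr12:26456453-26456702 on the minus strand, Igtp at chr11:58199306-58199555 on the plus strand and Apol11a at chr15:77508019-77508268 on the plus strand.
Isg15: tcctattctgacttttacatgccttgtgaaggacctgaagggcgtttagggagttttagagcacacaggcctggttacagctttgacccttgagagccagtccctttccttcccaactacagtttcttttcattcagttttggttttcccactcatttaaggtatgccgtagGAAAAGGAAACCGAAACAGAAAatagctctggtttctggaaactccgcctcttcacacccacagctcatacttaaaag
Rsad2: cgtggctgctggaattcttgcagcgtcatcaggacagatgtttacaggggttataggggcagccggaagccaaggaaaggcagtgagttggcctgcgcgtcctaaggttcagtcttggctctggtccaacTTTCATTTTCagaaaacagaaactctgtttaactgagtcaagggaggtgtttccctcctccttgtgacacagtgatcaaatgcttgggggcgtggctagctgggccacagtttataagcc
Igtp: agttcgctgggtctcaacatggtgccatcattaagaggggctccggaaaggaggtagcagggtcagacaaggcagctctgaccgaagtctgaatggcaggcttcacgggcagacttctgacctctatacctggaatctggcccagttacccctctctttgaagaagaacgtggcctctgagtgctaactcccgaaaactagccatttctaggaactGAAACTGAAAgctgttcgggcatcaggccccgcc
Apol11a: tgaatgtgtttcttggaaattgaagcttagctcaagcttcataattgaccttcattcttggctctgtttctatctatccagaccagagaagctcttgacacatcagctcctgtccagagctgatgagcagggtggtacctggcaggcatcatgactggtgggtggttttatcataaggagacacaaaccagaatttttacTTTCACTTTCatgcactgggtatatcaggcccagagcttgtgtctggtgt

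Between the last capital and the start lie 56 bases in Isg15, 110 in Rsad2, 24 in Igtp and 40 in Apol11a. A match is a run of letters, and binding was not measured.

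MHC class I genes, whose products show peptides to CD8 T cells and which interferons induce, were lower for 3 of 16 tested and higher for none, with a median of -0.36. B2m, the shared light chain, was at 401, 511, 242 and 357 CPM in ATOR-4066 1, 3, 4 and 5 and at 387, 1290, 749, 1270 and 798 CPM in CD40 mAb 1 to 5 (log2 change -1.25 ± 0.345, edgeR adjusted p = 0.0231). It lost its call without CD40 mAb 2 or 4 or ATOR-4066 4 or 5, with adjusted p between 0.0501 and 0.0901. H2-T22, a nonclassical class I gene, changed by -1.85 ± 0.378 (edgeR adjusted p = 0.006). H2-T23, which encodes the NKG2A ligand Qa-1, changed by -0.71 ± 0.228 (edgeR adjusted p = 0.0492, and 0.0841 to 0.118 in 7 of the 9 fits that leave out 1 library), and with totals alone its change was 0.17. Without CD40 mAb 1, 8 of the 16 were lower. With totals that leave out haemoglobin 12 were higher and 1 lower, where 8694 of all 12183 genes tested were higher.

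**Figure D3:**
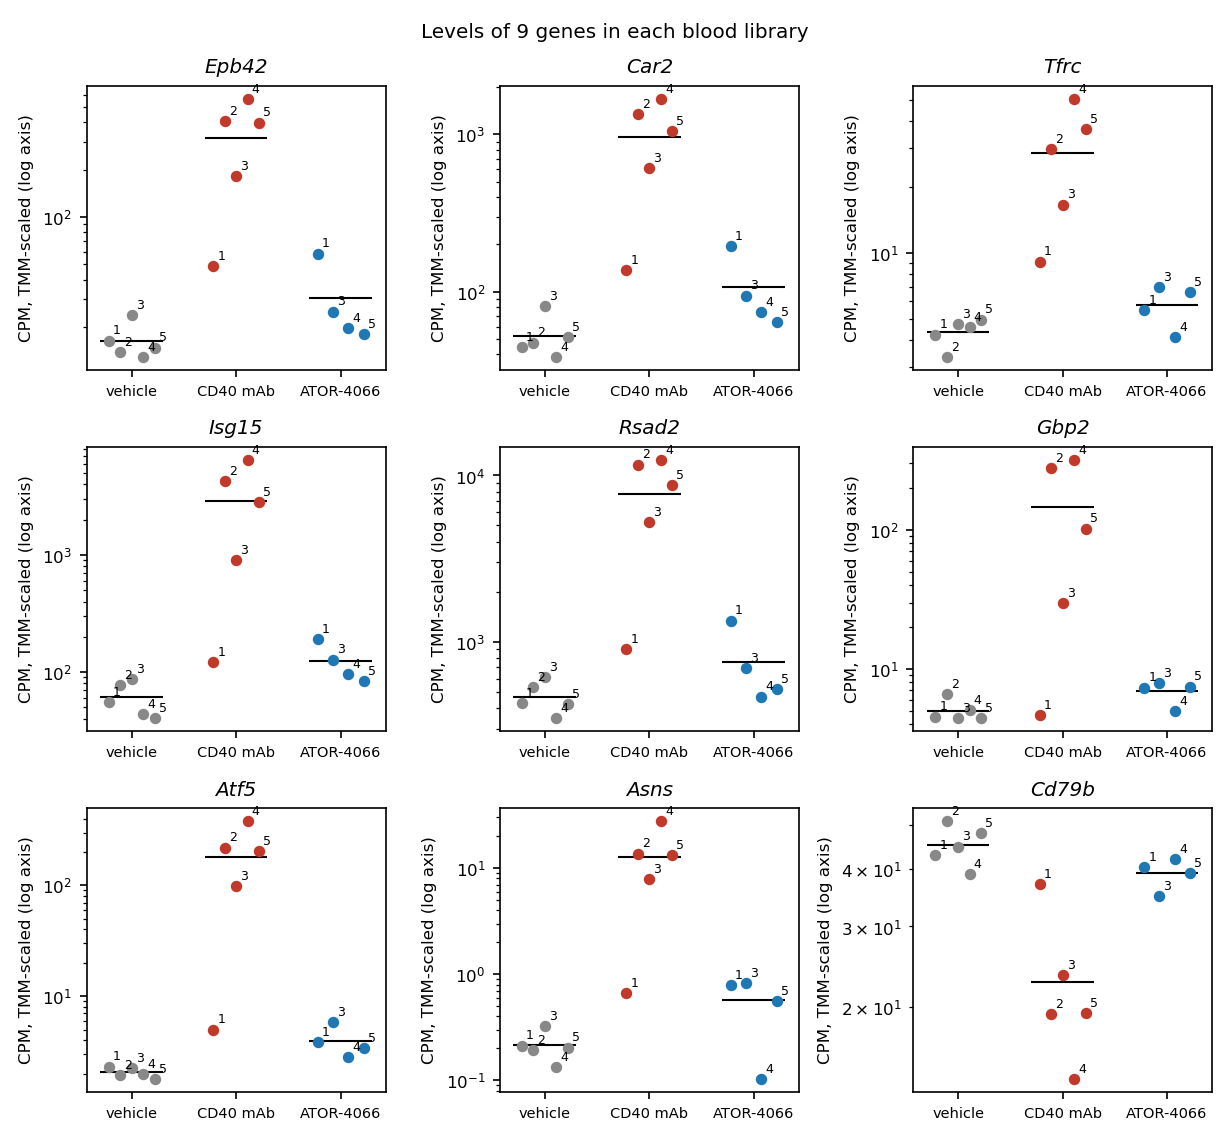
Levels of 9 genes in each blood library, in CPM on log axes, with the animal number beside each point and the group mean as a line. In the first 8 panels CD40 mAb 2 to 5 lie above every vehicle and ATOR-4066 library, and in Cd79b they lie below them, while CD40 mAb 1 lies with or near the other groups.

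The largest fall of all named genes was in Atf5, a stress-induced transcription factor, and enzymes of amino acid and one-carbon metabolism fell with it. Atf5 (ENSMUSG00000038539, chromosome 7, 44812256 to 44816658) was at 3.83, 5.82, 2.83 and 3.41 CPM in ATOR-4066 1, 3, 4 and 5 and at 4.99, 219, 98.7, 382 and 205 CPM in CD40 mAb 1 to 5. Its log2 change was -5.53 ± 0.873 (edgeR adjusted p = 0.00526), a 46.1-fold higher level in CD40 mAb. Vehicle libraries had 1.77 to 2.31 CPM. Asns, asparagine synthetase, was at 0.796, 0.825, 0.102 and 0.555 CPM in ATOR-4066 and at 0.669, 13.7, 7.81, 27.8 and 13.2 CPM in CD40 mAb (log2 change -4.48 ± 0.835, edgeR adjusted p = 0.00558). Mthfd2, a mitochondrial enzyme of folate metabolism, changed by -3.96 ± 0.752 (edgeR adjusted p = 0.00558). All 3 genes kept CD40 mAb 1 at the ATOR-4066 level, and each was called with totals alone, at -4.48, -3.40 and -2.93.

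These enzymes are known targets of the amino acid response, in which ATF4 binds composite sites in their promoters. The core TGATGNAA, searched on both strands, was present in the RefSeq window of 4.51 percent of 27025 genes. Asns had 1 match, and the windows of Atf5 and Mthfd2 had none. Of 64 named genes with a window 4 had it, and the other three, Apoe, Tnfaip3 and Traf1, had log2 values of 1.31, -0.57 and -0.26. The 30 bases around it, at chr6:7693214-7693243 on the minus strand of GRCm38.p6, are printed 5′ to 3′ with the match in capitals.
Asns: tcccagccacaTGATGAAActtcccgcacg

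Crip2, a small LIM domain protein, also belonged to the 15 largest falls, at -4.21 ± 0.884 (edgeR adjusted p = 0.00819). It was at 0.536 to 0.871 CPM in ATOR-4066 and at 0.791, 22.2, 3.86, 26.9 and 5.4 CPM in CD40 mAb.

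Genes of dividing cells were lower in ATOR-4066 blood, in 10 of 19 tested with none higher (median -1.22). Their summed level was 213, 159, 114 and 115 CPM in ATOR-4066 1, 3, 4 and 5 and 184, 707, 442, 908 and 614 CPM in CD40 mAb 1 to 5, with 66.2 to 112 CPM in vehicle. Mki67, the proliferation antigen Ki-67, was at 9.69, 6.69, 5.23 and 6.36 CPM in ATOR-4066 and at 9.06, 33.8, 21.4, 40.5 and 40.5 CPM in CD40 mAb (log2 change -2.05 ± 0.356, edgeR adjusted p = 0.00526). Ube2c, a ubiquitin-conjugating enzyme of mitosis, changed by -2.13 ± 0.412 (edgeR adjusted p = 0.0053) and Nusap1, a spindle protein, by -1.88 ± 0.362 (edgeR adjusted p = 0.0053). Rrm2, a subunit of ribonucleotide reductase, did not overlap between groups, at 0.817 to 1.34 CPM against 1.67 to 7.78 CPM (log2 change -1.75 ± 0.344, edgeR adjusted p = 0.00548). The erythroid list moved with this list over the same libraries, and its part in the proliferation genes was not tested. With totals alone 4 members were lower, and with totals that leave out haemoglobin 3 were lower and 4 higher. Without CD40 mAb 1, 14 were lower and without ATOR-4066 4, 6.

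Some neutrophil genes were lower in ATOR-4066 blood. Of 14 mature neutrophil markers tested, 5 were lower and none higher (median -1.26), and of 6 granule genes of immature neutrophils 2 were lower (median -1.74). S100a9, a calcium-binding protein that fills the neutrophil cytoplasm, was at 86.6 ± 37.2 CPM in ATOR-4066 (SD, n = 4) and at 83.3, 215, 178, 354 and 475 CPM in CD40 mAb 1 to 5. Its log2 change was -1.59 ± 0.452 (edgeR adjusted p = 0.0281), and the call was lost without CD40 mAb 4 or 5 or ATOR-4066 4 or 5 (edgeR adjusted p = 0.0719, 0.0743, 0.0948 and 0.0888). Ly6g, the surface antigen used to sort mouse neutrophils, was low, at 0.153 to 0.256 CPM in ATOR-4066 and at 0.182, 2.01, 1.09, 3.14 and 4.04 CPM in CD40 mAb (log2 change -3.26 ± 0.745, edgeR adjusted p = 0.01).

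In 4 further neutrophil genes CD40 mAb 5 was again the highest library. Trem1, a receptor that amplifies inflammation, changed by -1.65 ± 0.357 without overlap between groups (edgeR adjusted p = 0.0077). Mmp8, neutrophil collagenase, changed by -1.64 ± 0.43 (edgeR adjusted p = 0.0219, or 0.054 to 0.0806 without CD40 mAb 4 or 5 or ATOR-4066 4 or 5). Ltf, lactoferrin of the secondary granules, was at 0.53, 1.60, 0.74 and 0.491 CPM in ATOR-4066 and at 0.821, 6.20, 4.09, 6.45 and 14.7 CPM in CD40 mAb (log2 change -3.02 ± 0.665, edgeR adjusted p = 0.00957). Ngp, another granule protein, changed by -2.86 ± 0.743 (edgeR adjusted p = 0.0227, or 0.0621 to 0.083 without ATOR-4066 1, 4 or 5). The mature list was sensitive to scaling: with totals alone 1 member was lower, and with totals that leave out haemoglobin 2 were higher and 1 lower. Without CD40 mAb 1, 9 mature markers and 5 granule genes were lower. Without CD40 mAb 4 or 5 or ATOR-4066 4 or 5, 2 mature markers were.

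Monocyte markers did not move as a group, with 1 of 12 classical markers higher and 1 lower and a median of -0.02. The classical counts were 1 higher and 2 lower without CD40 mAb 1. Fn1, fibronectin, which classical monocytes express, was at 29.6, 44, 33.0 and 24.4 CPM in ATOR-4066 1, 3, 4 and 5, at 20.2, 8.75, 11.8, 4.39 and 13.1 CPM in CD40 mAb 1 to 5 and at 39.3 to 65.1 CPM in vehicle. The groups did not overlap (log2 change 1.48 ± 0.308, edgeR adjusted p = 0.00605). Cd14, the lipopolysaccharide co-receptor, went the other way at -2.58 ± 0.667 (edgeR adjusted p = 0.0213, or 0.0518 to 0.0794 without CD40 mAb 5 or ATOR-4066 4 or 5). Ccr2, the receptor that draws classical monocytes out of bone marrow, was at 12.2 to 18.2 CPM in ATOR-4066 and 2.98 to 10.1 CPM in CD40 mAb without overlap, and did not pass the test (log2 change 0.80 ± 0.291, edgeR adjusted p = 0.0846). Ly6c2 was at -0.85 ± 0.349 (edgeR adjusted p = 0.134, or 0.000567 without CD40 mAb 1). The nonclassical monocyte receptor Cx3cr1 was at 0.56 ± 0.275 (edgeR adjusted p = 0.213), and its annotated span overlaps Csrnp1, Gorasp1 and Xirp1 on the same strand.

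Of 12 nonclassical markers 1 was lower, Cd36, a scavenger receptor that platelets and red cell precursors also express. It was at 23.1, 13.3, 9.93 and 9.15 CPM in ATOR-4066 and at 18, 142, 78.3, 187 and 128 CPM in CD40 mAb (log2 change -2.99 ± 0.522, edgeR adjusted p = 0.00526). Over the CD40 mAb libraries Cd36 has the order of the summed erythroid genes, whose part in it was not tested. In the fit without CD40 mAb 1, 2 nonclassical markers were higher and 4 lower, and with totals that leave out haemoglobin 8 were higher and 1 lower. The latter scaling called 8694 of all 12183 genes tested higher. The summed level of the list was 95.9 to 141 CPM in ATOR-4066, 99.7 CPM in CD40 mAb 1 and 226 to 251 CPM in CD40 mAb 2 to 5. Cd36 alone gave 142, 78.3, 187 and 128 CPM of the 231, 226, 251 and 250 CPM in CD40 mAb 2 to 5. In ATOR-4066 it gave 9.15 to 23.1 CPM, so the sum does not describe the other members. Il1rn, the secreted antagonist of the interleukin-1 receptor, was the only member called among 19 cytokine, chemokine and receptor genes (log2 change -1.55 ± 0.391, edgeR adjusted p = 0.0169, or 0.0647 and 0.0508 without ATOR-4066 4 or 5). In that list 1 gene was higher and 3 were lower without CD40 mAb 1.

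Dendritic cell markers were measured at low counts. Of 10 tested, 2 were higher and 1 lower, or 4 and 1 without CD40 mAb 1. Clec10a, a lectin of conventional dendritic cells, was at 0.82, 0.963, 0.664 and 0.576 CPM in ATOR-4066 and at 0.547, 0.212, 0.227, 0.0827 and 0.327 CPM in CD40 mAb (log2 change 1.25 ± 0.345, edgeR adjusted p = 0.0228). Flt3, the receptor of the dendritic cell growth factor, was at 0.542 ± 0.153 CPM (SD, n = 4) and 0.24 ± 0.123 CPM (SD, n = 5; log2 change 1.04 ± 0.32, edgeR adjusted p = 0.0405). Each of these calls was lost in several fits that leave out 1 library: Clec10a without CD40 mAb 2 or 3 or ATOR-4066 1 or 3 (edgeR adjusted p = 0.0541 to 0.0607), and Flt3 in 7 of 9 (edgeR adjusted p = 0.0517 to 0.134). Bst2, listed here because plasmacytoid dendritic cells express it and also induced by interferon, was lower (log2 change -2.97 ± 0.689, edgeR adjusted p = 0.0126, or 0.051 without ATOR-4066 4).

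Cd209a, a lectin of monocyte-derived dendritic cells, was at 1.08, 0.413, 0.995 and 0.619 CPM in ATOR-4066 1, 3, 4 and 5 and at 0.669, 0, 0.0454, 0 and 0.0546 CPM in CD40 mAb 1 to 5, with 1.23 to 1.91 CPM in vehicle. It did not pass the test (edgeR adjusted p = 0.0578), and did without CD40 mAb 1 (edgeR adjusted p = 1.74e-05). The 4 remaining CD40 mAb libraries were then at or near 0 and no fold is given.

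Of 15 B cell markers tested, 5 were higher in ATOR-4066 than in CD40 mAb blood and none lower (median 0.70). The summed level was 570, 520, 703 and 619 CPM in ATOR-4066 1, 3, 4 and 5, 628, 315, 373, 248 and 288 CPM in CD40 mAb 1 to 5 and 649 to 801 CPM in vehicle. CD40 mAb 2 to 5 were below every other blood library, and CD40 mAb 1 was within the ATOR-4066 range. All 15 were called higher without CD40 mAb 1. Without any other single library 0 to 3 were, and in a fit of the 9 libraries alone 0 were.

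Cd79b, a signalling chain of the B cell receptor, was at 40.4, 35.0, 42.1 and 39.3 CPM in ATOR-4066 and at 37.1, 19.3, 23.5, 13.9 and 19.4 CPM in CD40 mAb. Its log2 change was 0.79 ± 0.215 (edgeR adjusted p = 0.0219, or 0.055 to 0.067 without CD40 mAb 2 or 5 or ATOR-4066 4 or 5). Pax5, the transcription factor that keeps B cell identity, changed by 0.76 ± 0.223 (edgeR adjusted p = 0.0321, and over 0.05 in 6 of the 9 fits that leave out 1 library), and Fcer2a, the low-affinity IgE receptor CD23 of follicular B cells, by 1.01 ± 0.303 (edgeR adjusted p = 0.0372, and 0.058 to 0.124 in all such fits but the one without CD40 mAb 1). Cd180, a Toll-like receptor relative on B cells, changed by 0.93 ± 0.238 (edgeR adjusted p = 0.0161, or 0.0567 and 0.0588 without ATOR-4066 1 or 4).

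MHC class II genes, which B cells and other antigen-presenting cells express, were higher for 6 of 11 tested and lower for none (median 0.63). Ciita, the coactivator that switches on class II genes, was at 17.5, 13.7, 19.5 and 17.0 CPM in ATOR-4066 1, 3, 4 and 5 and at 16.6, 9.59, 8.36, 5.71 and 6.98 CPM in CD40 mAb 1 to 5 (log2 change 0.83 ± 0.224, edgeR adjusted p = 0.0208, or 0.0543 to 0.0738 without CD40 mAb 5 or ATOR-4066 4 or 5). Cd74, the invariant chain, was at 345 ± 44.4 CPM in ATOR-4066 (SD, n = 4) and 200 ± 69.0 CPM in CD40 mAb (SD, n = 5; log2 change 0.78 ± 0.245, edgeR adjusted p = 0.0435). H2-DMa, which loads peptides, changed by 0.50 ± 0.156 (edgeR adjusted p = 0.0418), and H2-Oa, which restrains that loading in B cells, by 0.73 ± 0.228 (edgeR adjusted p = 0.0455). The B cell list moved with these genes over the same libraries, and its part in them was not tested. Without CD40 mAb 1, 10 of the 11 were higher, and without any other single library 0 to 2 were. Cd74 and H2-DMa lost their calls in 8 of the 9 fits that leave out 1 library and H2-Oa in 7 (edgeR adjusted p = 0.0574 to 0.157).

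Among the CD40 mAb libraries immunoglobulin constant genes, like B cell markers, had their highest sum in CD40 mAb 1. Ighd, the IgD heavy chain of naive B cells, was at 59.5, 57.9, 77.2 and 64.5 CPM in ATOR-4066 and at 65.3, 31.6, 38.7, 24.7 and 33.3 CPM in CD40 mAb (log2 change 0.74 ± 0.231, edgeR adjusted p = 0.0438, and 0.0598 to 0.14 in all fits that leave out 1 library but the one without CD40 mAb 1). Iglc3, a lambda light chain constant gene, changed by 0.77 ± 0.239 (edgeR adjusted p = 0.0434, with its call lost in the same 8 fits), and Ighm, the IgM heavy chain, was at 0.70 ± 0.241 (edgeR adjusted p = 0.0672, or 0.000894 without CD40 mAb 1). Of 10 constant genes tested 2 were higher and none lower, 6 were higher without CD40 mAb 1, and none was without any other single library. None of 9 plasma cell genes passed edgeR's test, with a median of 0.31, 2 at an unadjusted p under 0.05, none called by DESeq2 and 2 by voomLmFit. Leaving out CD40 mAb 1 gave 4 plasma cell genes higher and 1 lower. With totals alone 2 were higher, and with totals that leave out haemoglobin 8 were, where 8694 of all 12183 genes tested were.

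**Figure D4:**
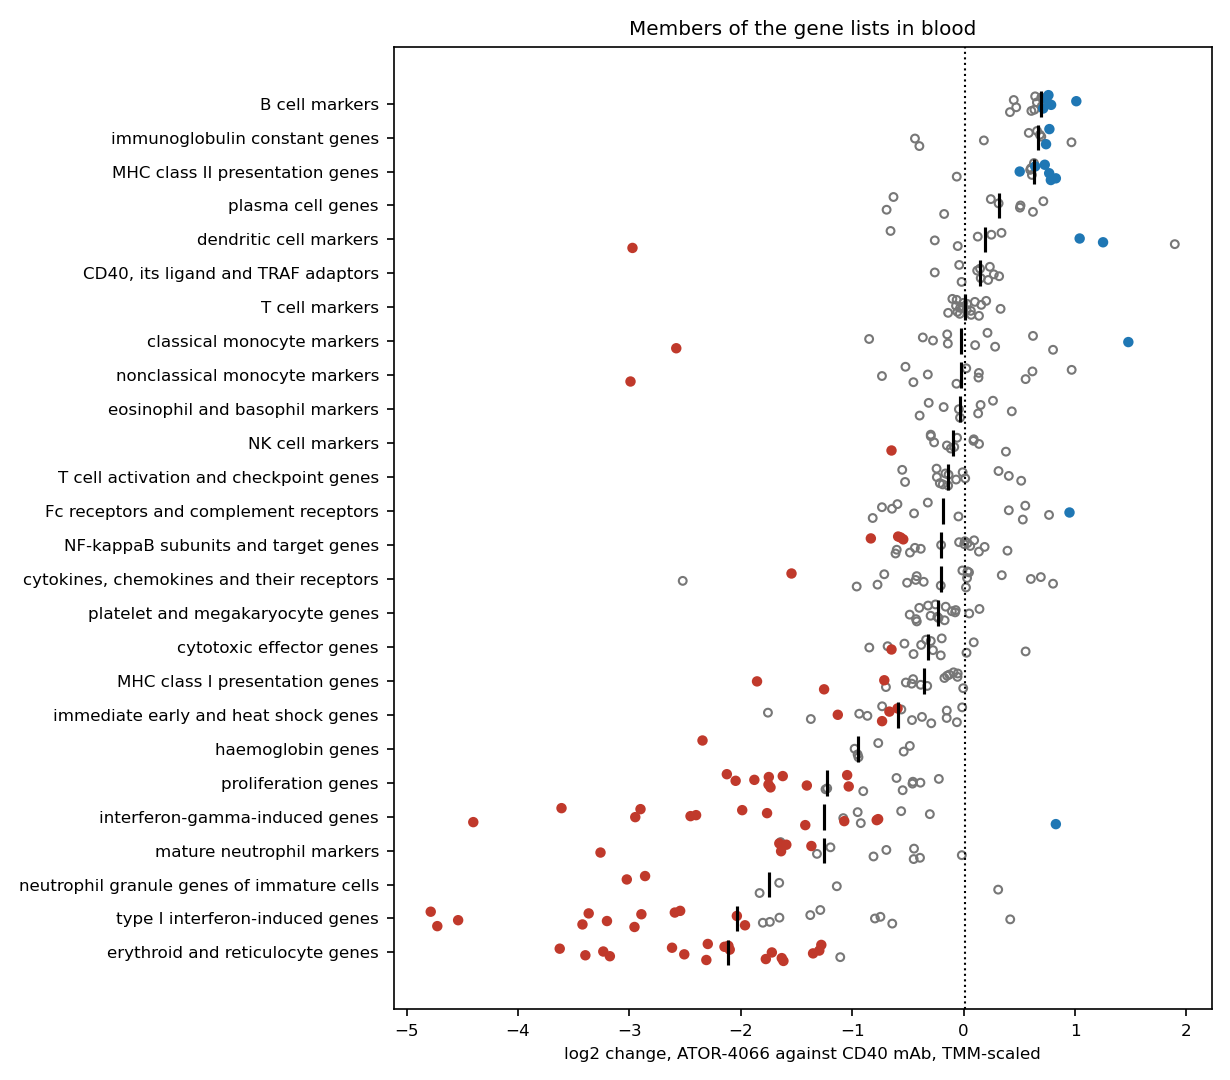
Each circle is 1 tested member of a gene list, placed by its log2 change, ATOR-4066 against CD40 mAb in blood. Filled circles passed the edgeR test (red lower, blue higher), open circles did not, black bars are list medians and the dotted line is the median of all genes at 0.01. Erythroid, interferon, neutrophil and proliferation lists lie to the left, B cell and MHC class II lists to the right, and T cell markers lie at the dotted line.

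No difference in T cell markers was detected. None of 18 tested passed with edgeR, DESeq2 or voomLmFit, 1 had an unadjusted p under 0.05, the median change was 0.01, and the summed level was 170 to 188 CPM in ATOR-4066 against 151 to 213 CPM in CD40 mAb. With totals alone 3 were higher, where 2324 of all 12184 genes tested were. With totals that leave out haemoglobin all 18 were, where 8694 of all 12183 genes tested were. Cd8a was at 8.95 ± 1.03 CPM (SD, n = 4) and 9 ± 1.41 CPM (SD, n = 5; log2 change -0.01 ± 0.13, edgeR adjusted p = 0.979), and Cd4 was at 0.33 ± 0.152 (edgeR adjusted p = 0.175). Foxp3, the master regulator of regulatory T cells, was at 1.62, 2.15, 2.12 and 1.54 CPM in ATOR-4066 and at 1.25, 1.27, 1.41, 1.16 and 1.31 CPM in CD40 mAb. Its groups did not overlap, and its adjusted p of 0.0519 (edgeR) was just over the threshold (0.0409 without ATOR-4066 5). The noncoding RNA Flicr lies within its span on the same strand. The leukocyte gene Ptprc, or CD45, had a change of -0.05 ± 0.179 (edgeR adjusted p = 0.896) under TMM and 0.62 with totals alone.

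Of 12 NK cell markers, 1 was lower, where 10.8 percent of all genes tested were lower. Gzma, a granzyme of NK and cytotoxic T cells, was at 16.9, 19.6, 16.2 and 14 CPM in ATOR-4066 and at 21.0, 34.2, 22.9, 28.7 and 24.5 CPM in CD40 mAb without overlap (log2 change -0.66 ± 0.164, edgeR adjusted p = 0.0133, or 0.0715 without ATOR-4066 5). With totals alone it was at 0.08, so its direction depends on the scaling. Nkg7 was at -0.29 ± 0.127 (edgeR adjusted p = 0.151). Gzma was also the only edgeR call among 14 cytotoxic effector genes, of which 3 were lower without CD40 mAb 1 and 7 higher with totals that leave out haemoglobin. None of 15 T cell activation and checkpoint genes passed with edgeR, DESeq2 or voomLmFit, with 2 at an unadjusted p under 0.05. In that list 1 was lower without CD40 mAb 1, 1 was higher without ATOR-4066 5, and 10 were higher with totals that leave out haemoglobin. That last scaling called 8694 of all 12183 genes tested higher, so the counts of 7 and 10 do not set these lists apart.

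None of 10 genes for CD40, its ligand and TRAF adaptors passed with edgeR, DESeq2 or voomLmFit, and none had an unadjusted p under 0.05 (median 0.15). With totals alone 3 were higher (median 0.86), where the median over all genes was 0.72. With totals that leave out haemoglobin all 10 were (median 1.16), where 8694 of all 12183 genes tested were (median over all genes 1.02). Mouse Cd40 (ENSMUSG00000017652, chromosome 2, 165055627 to 165072948) was at 3.54, 2.98, 3.45 and 2.75 CPM in ATOR-4066 1, 3, 4 and 5 and at 3.16, 3.66, 2.77, 2.15 and 2.40 CPM in CD40 mAb 1 to 5 (log2 change 0.15 ± 0.153, edgeR adjusted p = 0.573). It does not report on the human transgene, which was not analysed here. Traf1, an adaptor induced by CD40 signals, was at -0.26 ± 0.158 (edgeR adjusted p = 0.319), and Birc3, a ubiquitin ligase of the same complex, at 0.22 ± 0.115 (edgeR adjusted p = 0.239).

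Of 19 NF-kappaB subunits and targets, 4 were lower and none higher (median -0.20). Tnfaip3, or A20, an inhibitor that NF-kappaB induces, was at 7.42, 6.60, 8.14 and 7.89 CPM in ATOR-4066 and at 10, 10, 10.2, 14 and 11.7 CPM in CD40 mAb without overlap. Its log2 change was -0.57 ± 0.126 (edgeR adjusted p = 0.0077). Vehicle was at 11.2 to 14.2 CPM, and the change of ATOR-4066 against vehicle was -0.77 (edgeR adjusted p = 0.0153). Tnip1, a partner of A20, changed by -0.59 ± 0.143 (edgeR adjusted p = 0.0119), Relb, a subunit of the alternative pathway, by -0.54 ± 0.152 (edgeR adjusted p = 0.0254, and over 0.05 in 6 of the 9 fits that leave out 1 library), and Sod2, mitochondrial superoxide dismutase, by -0.83 ± 0.215 (edgeR adjusted p = 0.0161, or 0.0653 and 0.0693 without ATOR-4066 4 or 5). These directions depend on the scaling: with totals alone Tnfaip3, Tnip1 and Relb were at 0.20, 0.21 and 0.25, Sod2 was at -0.01, and 3 members of the list were called higher and none lower. The counts were 1 higher and 7 lower without CD40 mAb 1.

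Among the 15 largest rises, Clec2d, a lectin that binds the NK receptor NKR-P1, was above vehicle too. It was at 8.75, 31.6, 32.3 and 17.6 CPM in ATOR-4066 1, 3, 4 and 5, at 11.4, 5.83, 4.91, 9.19 and 8.62 CPM in CD40 mAb 1 to 5 and at 4.98 to 7.56 CPM in vehicle. ATOR-4066 3, 4 and 5 were above all others and ATOR-4066 1 was within the CD40 mAb range (log2 change 1.49 ± 0.33, edgeR adjusted p = 0.00848). Against vehicle the change was 1.90 (edgeR adjusted p = 0.0269). Il4i1, an amino acid oxidase of antigen-presenting cells, was at 3.58 to 4.36 CPM against 1.16 to 2.89 CPM without overlap (log2 change 1.00 ± 0.178, edgeR adjusted p = 0.00526). It overlaps Nup62 on the same strand, so part of its counts may be of that gene.

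Other genes that were higher lay nearer the vehicle level in ATOR-4066. Apoe, apolipoprotein E, was at 19.6, 23.6, 25.5 and 22.3 CPM in ATOR-4066 and at 19.9, 6.73, 6.68, 4.30 and 7.64 CPM in CD40 mAb, with 20.9 to 29.8 CPM in vehicle (log2 change 1.31 ± 0.321, edgeR adjusted p = 0.0138). Trf, transferrin, changed by 1.09 ± 0.279 (edgeR adjusted p = 0.0163, or 0.0575 without ATOR-4066 1), and Arhgef37, a guanine nucleotide exchange factor, by 1.18 ± 0.324 (edgeR adjusted p = 0.0243, or 0.0556 to 0.0674 without CD40 mAb 2 or ATOR-4066 4 or 5), both without overlap. Fcgr1, the high-affinity IgG receptor, was at 2.60, 2.93, 1.71 and 2.05 CPM against 0.73, 1.38, 1.09, 1.57 and 1.42 CPM (log2 change 0.95 ± 0.293, edgeR adjusted p = 0.042). Its adjusted p was 0.051 to 0.0994 in 8 of the 9 fits that leave out 1 library. It was the only edgeR call among 12 Fc and complement receptor genes, of which voomLmFit called 6. When CD40 mAb 1 was left out, edgeR called 3 higher and 6 lower, and with totals that leave out haemoglobin 8 higher. The latter scaling called 8694 of all 12183 genes tested higher.

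Platelet and heat shock genes complete the blood lists. None of 16 platelet and megakaryocyte genes passed with edgeR, DESeq2 or voomLmFit, and none had an unadjusted p under 0.05 (median -0.23). With totals alone 4 were higher, where 2324 of all 12184 genes tested were. With totals that leave out haemoglobin all 16 were (median 0.89), where 8694 of all 12183 genes tested were (median over all genes 1.02). Itga2b, the platelet integrin CD41, was at 237, 384, 179 and 328 CPM in ATOR-4066 and at 223, 517, 425, 540 and 266 CPM in CD40 mAb (edgeR adjusted p = 0.336). Of 17 immediate early and heat shock genes 4 were lower, or 6 without CD40 mAb 1. Hsp90aa1, an inducible chaperone, was at 18.6 to 23 CPM against 23.8 to 66.9 CPM without overlap (log2 change -1.13 ± 0.246, edgeR adjusted p = 0.00692), and with totals alone none of the list was called. None of 9 eosinophil and basophil genes passed with any of these tools or had an unadjusted p under 0.05.

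To ask whether these differences were particular to blood, the same contrast was set against lymph node libraries of the same study, 5 from ATOR-4066 and 4 from CD40 mAb mice, in 1 model (limma's voomLmFit, 17887 genes, with the animal as a block). The contrast was more positive in blood than in lymph node for 88 genes (0.492%) and more negative for 795 (4.44%), at an adjusted p under 0.05. In lymph node itself 12 genes were higher (0.0671%) and 34 lower (0.19%) in ATOR-4066 than in CD40 mAb. No lymph node library of CD40 mAb animal 1 was in this set, so the library that stood apart in blood had no counterpart. Without blood CD40 mAb 1, 1367 genes differed in all, and without blood CD40 mAb 2 or 4 or ATOR-4066 4 or 5 the total was 393, 552, 515 and 371, against 883 with all libraries.

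Interferon and stress genes were among those that differed. Isg15 was at -4.11 in blood and -0.58 in lymph node in this model, a difference of -3.53 ± 0.762 (voomLmFit adjusted p = 0.013). Rsad2 differed by -3.08 ± 0.584 (voomLmFit adjusted p = 0.00611) and Ifit1 by -3.03 ± 0.669 (voomLmFit adjusted p = 0.0146). Of 21 type I interferon-induced genes 4 had a more negative contrast in blood, with list medians of -1.89 in blood and -0.55 in lymph node. Atf5 was at -5.25 in blood and 0.01 in lymph node (difference -5.265 ± 0.867, voomLmFit adjusted p = 0.00316), and Mthfd2 and Asns differed by -3.85 ± 0.692 and -3.835 ± 1.05 (voomLmFit adjusted p = 0.00454 and 0.0442).

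Some cell type genes differed between the tissues as well, and others did not. Of 19 erythroid genes 6 had a more negative contrast in blood, Car2 among them (-3.27 ± 0.549, voomLmFit adjusted p = 0.0032). For Alas2, at -1.55 in blood and -1.97 in lymph node, no difference was detected (voomLmFit adjusted p = 0.79). In this model 8 haemoglobin genes had medians of -0.83 in blood and -1.48 in lymph node, with none called in lymph node. The part of red cell RNA in the lymph node values was not tested. None of 14 mature neutrophil markers differed, with medians of -1.06 in blood and -0.82 in lymph node, though none was called in lymph node itself. S100a9 was at -1.54 in blood and -1.58 in lymph node. Ighm was at 0.91 in blood and -0.79 in lymph node, a difference of 1.695 ± 0.285 (voomLmFit adjusted p = 0.00316). Of 15 B cell markers 2 differed, and of 11 MHC class II genes 2. In lymph node Cd209a was higher in ATOR-4066, at 3.29 ± 0.399 (voomLmFit adjusted p = 0.000962). Its blood value is not set against this, since 4 of 5 CD40 mAb blood libraries were at or near 0. Foxp3 was at 0.47 in blood and 0.54 ± 0.0859 in lymph node, where it passed the test (voomLmFit adjusted p = 0.0128).

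**Figure D5:**
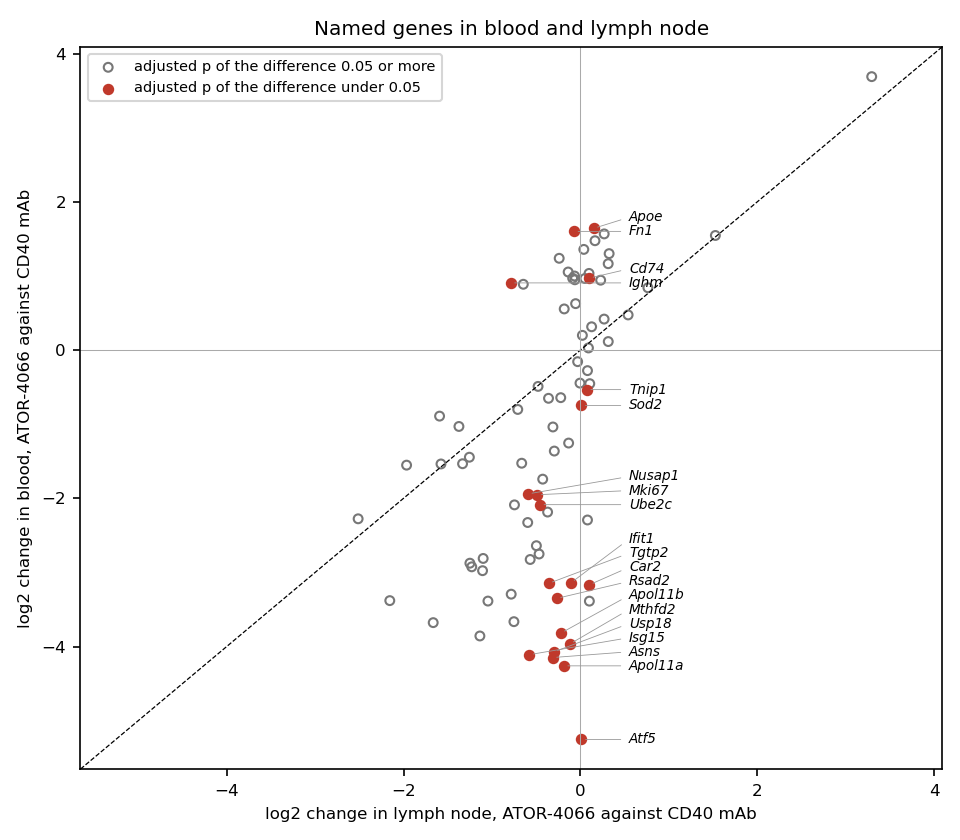
Each circle is 1 of 83 named genes, placed by its log2 change, ATOR-4066 against CD40 mAb, in lymph node (horizontal) and blood (vertical) from the joint model. Filled circles are the 20 genes whose change differed between the tissues at an adjusted p under 0.05, and the dashed line marks equal change. The filled circles lie between -0.79 (Ighm) and 0.15 (Apoe) on the lymph node axis.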

How the data were processed

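RNA of blood was sequenced after poly(A) selection with a stranded Illumina library kit, per the labels' protocols. The deposited file gives, for each gene, an estimated count in 52 columns, each of which matched a sample by name. The submitters' processing notes name STAR 5.1 and GRCm38; the annotation is not given in the sources used here, and 52081 of 57010 gene IDs were found in GENCODE vM21. Of the values, 11 percent were fractional and were rounded. Haemoglobin, mitochondrial and other abundant RNAs share each library's counts, so all levels are relative.

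The 14 blood libraries were fitted together with edgeR 4.0.16 (R 4.3.3): filterByExpr with a count minimum of 10 and a total of 15, TMM scaling, a robust quasi-likelihood F test per contrast and Benjamini-Hochberg adjustment over 12184 genes, with calls at an adjusted p under 0.05. The SE was taken from the F statistic. The fit was repeated without 14 haemoglobin genes in counts and library sizes. The blood and lymph node contrasts were compared with voomLmFit of limma 3.58.1 on 18 libraries with sample weights and the animal as a block (correlation 0.00288). DESeq2 1.42.0, other scalings and filters, a haemoglobin covariate and leaving out each library were alternatives; library totals without haemoglobin were added after seeing the data. On simulated counts for this comparison (11691 genes), 81 percent of 100 genes changed by 1 on the log2 scale and 96 percent of 100 changed by 2 were recovered, with 8 false calls. The changed genes were drawn from those above the median level, as many up as down, and only ATOR-4066 libraries were changed. No library was made to stand apart as CD40 mAb 1 does, so these shares do not give the recovery in the real data.

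The text names, for each direction, the 15 called genes that changed most, if their mean log2-CPM was 1 or more (predicted genes, pseudogenes and variable segments were left out). From every list it may name the 4 members whose p was lowest, and besides these Cd40, Ptprc, Ly6g and Cd8a, with exceptions stated. Some items that this rule selects are not reported here. Members and lists were chosen with earlier results of these data known. Nothing beyond the numbers in the titles says that libraries are separate animals, so p-values measure the spread between these libraries. Tumor and sorted-cell libraries were not used here.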

Additional observations from a re-analysis of the deposited data

Results flagged for a closer look

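In groups of 4 or 5 libraries, 9 of 176 groups checked held 1 library far from the rest of its group by Dixon's test, which chance alone gives in about 1 of 20 groups. CD40 mAb 1 was the far library in 5 of them: Fcer2a at 26.5 CPM, H2-Oa at 8.82 CPM, Apoe at 19.9 CPM, Cd209a at 0.669 CPM and the mitochondrial share of counts outside haemoglobin at 4.65 percent. The others were Epb42 in ATOR-4066 1 at 58.6 CPM, Tnip1 in ATOR-4066 4 at 7.61 CPM, Ccr2 in CD40 mAb 4 at 2.98 CPM and Nkg7 in CD40 mAb 2 at 9.06 CPM.

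The difference between ATOR-4066 and CD40 mAb differed between blood and lymph node for 20 of 83 named genes (voomLmFit, adjusted p under 0.05). Over all 17887 genes tested it was more positive in blood for 88 (0.492%) and more negative for 795 (4.44%). Most named genes were chosen by their change in blood, so their share is not evidence that they are particular to blood. The blood change minus the lymph node change, on the log2 scale, was negative for genes of the interferon response. It was -3.533 for Isg15, -3.083 for Rsad2, -3.034 for Ifit1, -3.771 for Usp18, -2.788 for Tgtp2, -4.072 for Apol11a and -3.599 for Apol11b. Among stress and metabolic genes it was -5.265 for Atf5, -3.835 for Asns and -3.846 for Mthfd2. The erythroid gene Car2 was at -3.268, and the proliferation genes Ube2c, Mki67 and Nusap1 were at -1.629, -1.465 and -1.347. Tnip1 and Sod2 were at -0.6056 and -0.7575. It was positive for Ighm at 1.695, Cd74 at 0.8715, Fn1 at 1.674 and Apoe at 1.492.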

How the results depend on the processing

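Over 20 alternatives and 83 named genes, 1325 values kept their side of the threshold and, where a fit called the gene, their direction. Another 278 lost the call, 33 gained one and 17 changed sign with a call in at least 1 of the fits compared. Sign changes without a call in either fit are among the 1325. With library size only these include Ptprc at 0.624, Cd8a at 0.65, Nkg7 at 0.42, Traf1 at 0.431, Itga2b at 0.341 and Ly6c2 at 0.0613. The 17 with a call follow. With library size only, H2-T23 was at 0.169, Gzma at 0.084, Tnfaip3 at 0.204, Tnip1 at 0.207 and Relb at 0.248. With library size only and haemoglobin genes removed, H2-T23 was at 0.505, Gzma at 0.422, Nkg7 at 0.743, Cd8a at 0.954, Tnfaip3 at 0.507, Tnip1 at 0.536, Relb at 0.572, Sod2 at 0.286, Traf1 at 0.763, Ptprc at 0.928, Hsp90aa1 at 0.100 and Itga2b at 0.675. These scalings gave 2324 higher and 383 lower genes, and 8694 and 367. The counts of higher and lower genes were 432 and 1543 with voomLmFit, 53 and 779 with the 9 libraries alone, and 55 and 728 with the haemoglobin share as a covariate. Leaving out 1 library gave 74 to 1015 higher and 840 to 2011 lower genes, and a haemoglobin share difference of 2.31 to 5.67 points. The count of genes that differed between blood and lymph node was 451 with edgeR and no block, and 371 to 1367 when 1 library was left out. With the replicate number as a block, 0 genes were higher and 2 lower. By the titles the numbers name different animals in each treatment. Deviations of same-numbered libraries had correlations of -0.212, -0.00343, -0.223 and -0.169, with none correlating best with its own number. So few pairs cannot show whether same-numbered libraries were handled together, so whether this block is needed stays unsettled. The cause of these differences was not tested. With 4.14 to 11.6 M (1e+06) counts outside haemoglobin, genes under 1 CPM rest on few reads.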

Other observations

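Ighm gave 65.1 to 73.3 percent and Ighd 21.1 to 28.1 percent of the counts of heavy chain constant genes over all 14 blood libraries. Igha, the IgA heavy chain, gave 0.773 to 3.22 percent in ATOR-4066 and 1.84, 2.16, 2.72, 4.82 and 12.2 percent in CD40 mAb. The highest share, in CD40 mAb 4, rests on 172 Igha counts.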
